A study of Mus musculus with 12 samples.

Results

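4T1 is a mouse mammary carcinoma line of BALB/c origin, labelled as triple-negative. The comparison described here set 4T1 cells labelled as knockout for integrin β3 against 4T1 cells labelled as wild type, both exposed to the solvent DMSO and to no drug. It used 6 of the 12 RNA sequencing libraries of the series, 3 for each line, and every gene of the count table after removal of repeated entries. Cells of both lines grew on a poly-L-lysine coat, received DMSO for 24 h and were harvested after a further 48 h in fresh medium. The other 6 libraries came from the same lines, again 3 for each, after 10 nM docetaxel for 24 h and the same 48 h without drug. Their own comparison shares no library with the DMSO comparison and is set beside it below. They also entered the common model, and so bear on the filter and the spread estimate behind the DMSO calls, which numbered 1693 when the 6 DMSO libraries were fitted alone. The labels do not give how the knockout was made, or whether the cells were a clone or a pool. Each genotype was represented by 1 line grown in what the labels call biological triplicate, so the lost gene and any other difference between the lines cannot be told apart, and p-values measure the spread between cultures only.

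Integrins are cell-surface receptors made of an α and a β subunit that bind matrix proteins or other cells and signal through focal adhesions. The β3 subunit, product of Itgb3, pairs with αv or αIIb and binds ligands such as vitronectin, fibronectin and osteopontin. Type I interferon signalling raises antiviral and antigen-presentation genes, and many tumour cells keep a low level of it without infection. ATF4 is a transcription factor that is translated when amino acids are short or the endoplasmic reticulum is stressed, and it raises genes for amino acid synthesis and uptake.

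Levels are in CPM, a gene's count scaled to a fixed library total. Total gene counts ran from 28729118 to 32317697 for wild-type DMSO libraries and from 30947099 to 34367196 for knockout-labelled ones. Of the 40406 entries, 15538 had enough counts to be tested, 12570 of them protein-coding. The wild-type DMSO libraries differed more among themselves than the knockout-labelled ones did. The chi-square per degree of freedom between 2 libraries of a group was 58.6 to 155 for wild type and 7.79 to 13.3 for knockout-labelled cells. The feature Gm23935, which the annotation lists as a microRNA gene, made up 1.62%, 3.98% and 0.435% of the counts of the wild-type libraries and 0.137% to 0.177% of those of the knockout-labelled ones. Of 9 mammary epithelial markers, 8 reached 1 CPM in at least 1 DMSO library, with a summed level of 3206 to 4268 CPM in wild-type and 4090 to 4315 CPM in knockout-labelled libraries. Esr1 and Erbb2, genes of receptors that a triple-negative tumour is classed as lacking by protein, were above 1 CPM. Of 9 fibroblast markers only Pdgfra and Col1a1, and of 9 macrophage markers only Cd68, Csf1r and Cd14, reached 1 CPM, and of 9 lymphocyte markers only Cd3e did, at 1.34 to 2.4 CPM in wild-type and 2.11 to 4.23 CPM in knockout-labelled libraries. None of the listed neutrophil, endothelial and adipocyte markers reached it.

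The targeted gene was examined first. Itgb3 (ENSMUSG00000020689.4) lies on chromosome 11 of GRCm38 from 104608000 to 104670476, plus strand. Per kilobase of exon its level was 12.1, 10.2 and 11.2 CPM for wild type, against 10.6, 11.3 and 11 CPM for knockout-labelled libraries. The 2 ranges overlapped, and the log2 difference (knockout-labelled minus wild type, as everywhere below) was −0.03 ± 0.08 (SE; edgeR adjusted p = 0.874), with a sign that turned to 0.036 without wild-type library 1. After docetaxel Itgb3 was called lower in knockout-labelled cells, at 80.6, 88.7 and 80 CPM against 59.3, 64.6 and 63.4 CPM without overlap (−0.41; edgeR adjusted p = 0.00765). The transcript thus did not separate the lines under DMSO and was not lost in either treatment, and the cells are called knockout-labelled throughout. Gene-level counts cannot show a small deletion within the transcript. Wild-type DMSO library 1 is described as knockout in free text, against its title and its genotype entry, which give wild type. Over 99 genes at least 2-fold apart between the lines after docetaxel, a signed mean of centred log2 CPM was −0.767 in that library, −0.787 and −0.860 in wild-type DMSO libraries 2 and 3, and between 0.849 and 0.886 for knockout-labelled DMSO libraries. The library thus lay with the wild type, as its title has it.

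Of 18 tested integrin genes, 11 for α and 7 for β subunits, 3 were called higher and 3 lower. Over all tested genes 6.6% were higher and 9.2% lower. Itgb2, which encodes the leukocyte β2 subunit, changed most. It (ENSMUSG00000000290.13; chromosome 10, 77530252 to 77565708, plus strand) stood at 6.33, 5.68 and 4.86 CPM in wild-type libraries and 46.2, 50.7 and 46.0 CPM in knockout-labelled libraries, a log2 difference of 3.08 ± 0.14 (edgeR adjusted p = 4.71e-09). The ranges were far apart. Per kilobase of exon, the 15.6 ± 0.863 CPM of Itgb2 in knockout-labelled cells (mean ± SD, n = 3) were above the 11 ± 0.363 CPM of Itgb3 in the same libraries. Of 18 α genes listed, 7 had too few counts to be tested. The leukocyte α genes Itgal, Itgam, Itgax and Itgad were not among the 11 tested. Whether the β2 subunit had an α partner in these cells was not tested. Itgb6, whose β6 product pairs only with αv, fell from 14.9, 23.2 and 15.2 CPM to 4.83, 7.69 and 6.49 CPM (log2 difference −1.48 ± 0.19; edgeR adjusted p = 0.000147). Itga5, the gene of the fibronectin receptor subunit α5, fell from 39.4, 43.2 and 41.9 CPM to 31.9, 32.2 and 32.2 CPM (−0.37 ± 0.07; edgeR adjusted p = 0.00414), again without overlap. The αv gene Itgav, at 264, 312 and 261 against 213, 239 and 236 CPM, was called lower at an adjusted p of 0.0418 by edgeR, a call lost in 13 of the alternatives tried, among them the omission of any knockout-labelled DMSO library. Itga1 and Itgb7 were called higher, with log2 differences of 0.72 and 0.60, and also lost their calls without single DMSO libraries. The αIIb gene Itga2b was low, at 1.89 to 4.69 CPM, and was not called (log2 difference −0.46 ± 0.37; edgeR adjusted p = 0.455, and a difference of 0.033 without wild-type library 3).

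Across all tested genes, 2454 differed between the lines under DMSO (15.8%), 1025 higher (6.6%) and 1429 lower (9.2%) in knockout-labelled cells. Of the 12570 protein-coding genes tested, 2342 were called in either direction (18.6%). At least 2-fold differences numbered 238 higher (1.53%) and 355 lower (2.28%), 1129 genes passed an adjusted p of 0.01 (7.27%), and 44 genes differed by more than 4 on the log2 scale. The 3 libraries of one line lay wholly above the 3 of the other for 5067 genes (32.6%). The count of calls ranged from 1264 without knockout-labelled library 1 to 3273 without wild-type library 1. It was 1581 without wild-type library 2 and 1566 without knockout-labelled library 3.

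The 12 largest increases among protein-coding genes of at least 5 CPM included genes almost without counts in the wild type. Ap1m2 (ENSMUSG00000003309.14; chromosome 9, 21294275 to 21312337, minus strand) encodes the epithelial μ subunit of the AP-1 adaptor, which sorts cargo to the basolateral membrane. It had 0, 3 and 0 counts in the wild-type libraries and 397, 469 and 548 in the knockout-labelled ones, a ratio of 429 scaled by library size (95% counting interval 147 to 2.08e+03). Mal2, a transcytosis protein of polarised epithelia, stood at 0.243, 0.206 and 0.405 CPM against 20.7, 22.2 and 25.2 CPM (log2 difference 6.29 ± 0.21; edgeR adjusted p = 7.16e-10). Both genes were close to absent from wild-type cells in every library. Arrdc4, an α-arrestin gene, stood at 0.0695, 0.0688 and 0 CPM against 5.82, 8.73 and 6.67 CPM (7.16 ± 0.53). Iqgap2, a scaffold of actin and small GTPases, went from 0.688 to 0.973 CPM up to 14.5 to 15 CPM (4.09 ± 0.16), and Pmp22, a tetraspan membrane protein gene, from 0.946 to 2.86 CPM up to 32.7 to 33.4 CPM (4.08 ± 0.24). Serpine2, which encodes the protease inhibitor nexin 1, went from 4.03, 2.79 and 2.77 CPM to 36.5, 33.2 and 30.6 CPM (3.38 ± 0.15; edgeR adjusted p = 5.47e-09). The others of the 12 largest increases were Tc2n, Gpr153, Decr1, Ubqln2, Gas7 and Asb2, with log2 differences of 3.11 to 5.25. None of the 12 had overlapping libraries, which the rule for naming them required.

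The 12 largest decreases likewise included genes almost without counts in the knockout-labelled line. Dsc2 (ENSMUSG00000024331.11; chromosome 18, 20030633 to 20059554, minus strand), the gene of the desmosomal cadherin desmocollin 2, stood at 17.1, 22.2 and 15.6 CPM in wild-type libraries and at 0, 0.0977 and 0.0588 CPM in knockout-labelled libraries (log2 difference −8.36 ± 0.32; edgeR adjusted p = 1.7e-09). Cldn7, a tight-junction claudin gene, went from 9.32, 8.40 and 9.15 CPM to 0.128, 0.0651 and 0.0294 CPM (−6.87 ± 0.29; edgeR adjusted p = 2.65e-09). Both were near the limit of detection in the knockout-labelled line. Piezo2, the gene of a mechanically gated ion channel, fell from 19.2, 10.8 and 9.52 CPM to 0.0651 to 0.264 CPM (−6.19 ± 0.38), and Kif21b, a kinesin gene, from 30.2, 35.4 and 40.6 CPM to 0.735, 1.30 and 1.32 CPM (−4.97 ± 0.29). Ldhb, one of the 2 main lactate dehydrogenase subunit genes, fell from between 5.49 and 6.04 CPM to at most 0.384 CPM, and Adm, the adrenomedullin gene, from at least 5.25 to at most 0.456 CPM. Bspry, Phf11d, Gstm2, Epsti1, Msi1 and Nlrc5 made up the rest, with log2 differences of −4.05 to −2.80. Prelid2 had 229 counts over the wild-type libraries and 0 over the knockout-labelled ones, and Cyp4f17 had 205 and 0. Against a floor of 3 counts over the group, they were at least 83.8-fold and at least 75-fold lower. Sh3tc2 had 216 and 2 counts. After docetaxel Prelid2 again had 72 counts in the wild type and 0 in the other line, and Ap1m2 had 2 and 1398. Not every such gene kept its state. Ndrg2, which had 2 counts in wild-type and 189 in knockout-labelled DMSO libraries, had 18 and 109 after docetaxel, and the noncoding 4833407H14Rik had 3 and 96 under DMSO and 19 and 129 after docetaxel.

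**Figure D1:**
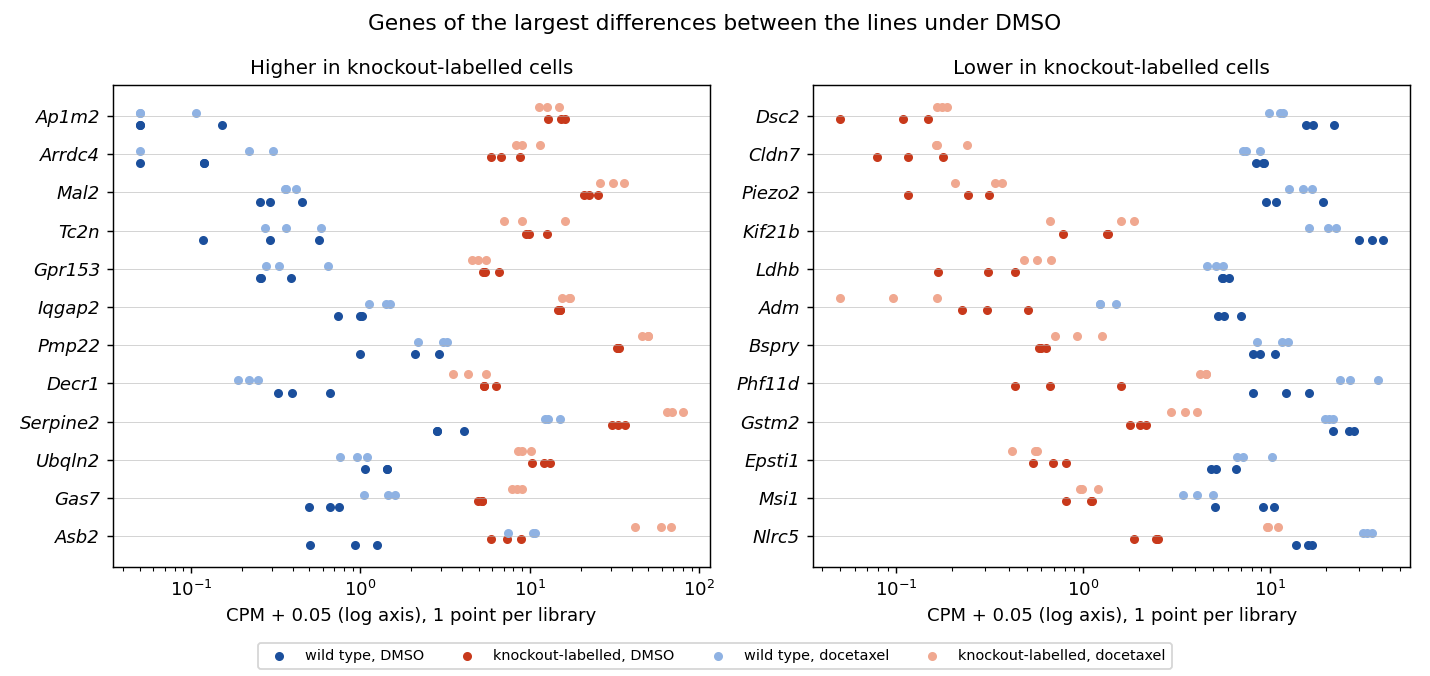
CPM + 0.05 on a log axis for the 12 genes of largest increase (left) and largest decrease (right) under DMSO, with 1 point for each library of the 4 groups. For every gene the 3 knockout-labelled DMSO points lie on one side of the 3 wild-type DMSO points, and the 3 docetaxel libraries of each line differ in the same direction on average.

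The type I interferon response was lower in knockout-labelled cells. Of 50 tested genes of the list, 47 fell, 1 rose and 2 did not pass, where 9.2% of all tested genes fell. The median log2 difference was −1.09, against 0.01 over all tested genes. Without any 1 library between 42 and 47 members fell. The list's factors, sensors and effectors moved the same way. Irf7, the factor that amplifies interferon induction, went from 69.0, 98.0 and 122 CPM to 25.9, 41.7 and 30.7 CPM, and Irf9, a DNA-binding factor of the interferon response, from 84.4, 116 and 121 CPM to 40.8, 54.5 and 48.8 CPM. In neither of these factors did the lines overlap. Dhx58, a regulator of cytosolic RNA sensing, fell from 27.1, 39.9 and 40.9 CPM to 7.51, 13.1 and 10.8 CPM (−1.78 ± 0.21; edgeR adjusted p = 5.53e-05). Ifi44 fell from 69.1, 118 and 91.9 CPM to 13.6, 24.6 and 22.5 CPM (−2.20 ± 0.20), and Iigp1, an interferon-induced GTPase gene, from 11.3, 15.8 and 14.1 CPM to 1.89, 3.81 and 4.11 CPM (−2.07 ± 0.23). The exception was Ifitm1, an antiviral membrane protein gene at 0.103 to 0.304 CPM in wild-type and 1.03 to 1.53 CPM in knockout-labelled libraries. Irf1 and Ifitm2 did not pass, at log2 differences of −0.05 and 0.22. In bulk RNA, fewer cells with an active response and less RNA per cell cannot be told apart.

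Many interferon-induced genes carry near their start the interferon-stimulated response element, a site bound by factors that interferon activates. Its core, GAAA, any 2 bases and GAAA again (TTTC, any 2 bases and TTTC on the other strand), was looked for on both strands in RefSeq promoter windows of GRCm38.p6, 250 bases before to 50 after a gene's start. The element was present in 393 of 10445 tested genes with a window (3.76%), and in 19 of the 37 interferon genes with one (51.4%). Of these 19, 18 fell. As 47 of the 50 tested list members fell in all, that count does not bear on the element. Over all tested genes with the letters, 87 of 393 were lower (22.1%), against 9.31% of the 10052 genes without them. The 18 list members are among the 87, so these shares do not separate the element from the list. The 4 stretches of 90 bases shown belong to the fallen list members of largest change among those considered. These held the letters before their start and had at least 5 CPM in the higher group. Position also limited the choice, so a member not shown may have changed more. The stretches show where the element lies, with the matching letters in capitals. Their 5′ to 3′ direction is that of the gene.
Gbp3: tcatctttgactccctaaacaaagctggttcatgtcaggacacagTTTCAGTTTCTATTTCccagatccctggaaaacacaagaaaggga
Oas1a: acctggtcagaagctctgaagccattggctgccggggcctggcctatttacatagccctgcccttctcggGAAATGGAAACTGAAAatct
Gbp7: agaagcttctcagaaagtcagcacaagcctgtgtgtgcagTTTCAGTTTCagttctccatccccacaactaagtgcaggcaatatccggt
Trim30a: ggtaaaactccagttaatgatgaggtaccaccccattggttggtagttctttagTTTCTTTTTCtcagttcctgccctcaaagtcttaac
They lie at chr3:142559954-142560043 (plus strand), chr5:120907526-120907615 (minus), chr3:142530243-142530332 (plus) and chr7:104465194-104465283 (minus). The first match began 45, 20, 53 and 36 bases before the start, and in Gbp3 and Oas1a 2 matches overlapped. Gbp3 and Gbp7 are guanylate-binding GTPases, Oas1a makes the 2-5A signal that activates RNase L, and Trim30a is a tripartite-motif protein. Gbp3 fell from 34.7, 45.5 and 46.6 CPM to 11.6, 15.5 and 15.7 CPM. Oas1a fell from 47.6, 56.3 and 63.3 CPM to 14.8, 21.5 and 20.4 CPM. Their log2 differences were −1.57 and −1.56, those of Gbp7 and Trim30a −1.55 and −1.43, and in all 4 the libraries of the lines did not overlap. A match is a sequence description and not evidence of binding.

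The antigen-presentation list, MHC class I with its processing machinery, fell as well. Of 25 tested, 19 fell, 0 rose and 6 did not pass, where 9.2% of all tested genes fell. The list's median log2 difference was −0.81. Without knockout-labelled library 1, 12 fell. Nlrc5 (ENSMUSG00000074151.13; chromosome 8, 94434356 to 94527272, plus strand) encodes the transcriptional activator of class I genes. It stood at 13.8, 16.9 and 16 CPM in wild-type and at 1.82, 2.48 and 2.41 CPM in knockout-labelled libraries (log2 difference −2.80 ± 0.14; edgeR adjusted p = 1.32e-08). Of the classical heavy chains, H2-K1 went from 398, 408 and 530 CPM to 251, 276 and 254 CPM and H2-D1 from 459, 506 and 688 CPM to 271, 284 and 267 CPM, both called, and neither overlapped. Reads shared by these near-identical genes could be split in the counting. B2m, the light chain, fell from 587, 970 and 699 CPM to 324, 375 and 373 CPM, and Psmb9, an immunoproteasome subunit gene, by 1.44 on the log2 scale. Among 13 ligands of immune checkpoints, 7 fell and 0 rose, beside the same 9.2% of all tested genes that fell. Cd274, which encodes PD-L1, stood at 3.65, 5.81 and 5.54 CPM against 1.82, 2.12 and 3.00 CPM (−1.11 ± 0.21; edgeR adjusted p = 0.00248), and Lgals9, the galectin 9 gene, at 119, 193 and 149 CPM against 27.8, 39.7 and 36.2 CPM (−2.15 ± 0.17).

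Of 43 NF-κB target, cytokine and chemokine genes, 12 fell, where 9.2% of all tested genes did. Another 2 rose, where 6.6% of all tested genes did, and 29 did not pass. Without wild-type library 2 or knockout-labelled library 1, 7 fell. Several of the fallen are also raised by interferon. Cxcl10, a T-cell chemokine gene, went from 30.2, 34.3 and 39.5 CPM to 15.5, 19.9 and 19.7 CPM, and Ccl5 from 44.1, 72.0 and 71.2 CPM to 22.6, 27.4 and 27.6 CPM. Vcam1, a leukocyte adhesion ligand gene, went from 14.4, 21.8 and 17.4 CPM to 4.22, 4.59 and 4.52 CPM (log2 difference −2.01 ± 0.15; edgeR adjusted p = 1.31e-06). The cytokine gene Il1a moved the other way, from 4.41, 4.54 and 4.22 CPM to 11.5, 14.1 and 12.1 CPM (1.52 ± 0.16; edgeR adjusted p = 2.39e-05). Of the secreted defence genes, Ltf, which encodes lactoferrin, rose from 3.79, 1.79 and 2.06 CPM to 18.1, 19.6 and 16.9 CPM (2.84 ± 0.19), and Slpi, a leukocyte protease inhibitor gene, fell from 41.2, 57.9 and 73.9 CPM to 30, 25.5 and 25.1 CPM. Among regulators of cell death Gsdmd, the pore-forming gasdermin D gene, stood at 8.34, 11.9 and 12.3 CPM against 2.46, 2.57 and 2.17 CPM (−2.17 ± 0.22; edgeR adjusted p = 1.89e-05).

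Genes that ATF4 induces, and those of amino acid supply, formed another group that was lower in knockout-labelled cells. Of 29 tested, 20 fell, 0 rose and 9 did not pass, where 9.2% of all tested genes fell. The list's median log2 difference was −0.70. Without any 1 library 15 to 20 fell. Atf4 itself stood at 253, 270 and 305 CPM in wild-type and 150, 134 and 127 CPM in knockout-labelled libraries (−1.01 ± 0.10; edgeR adjusted p = 1.89e-05). Trib3, a pseudokinase gene of the stress response, stood at 91.8, 121 and 175 CPM against 52.2, 58.7 and 48.3 CPM (−1.28 ± 0.19), and Chac1, a glutathione-degrading enzyme gene, at 40.9, 49.5 and 42.7 CPM against 24.1, 20.3 and 19.7 CPM. No library of one line reached the range of the other in these genes. Asns, asparagine synthetase, stood at 138, 187 and 165 CPM against 82.0, 86.1 and 78.7 CPM, and Slc7a5, the large neutral amino acid transporter, at 296, 304 and 337 CPM against 185, 167 and 163 CPM. Atf5, a related factor, had the widest spread, at 32.4, 51.9 and 107 CPM in wild-type libraries against 11.8 to 15.8 CPM (−2.27 ± 0.33). After docetaxel 0 of the 29 were called between the lines, where 5.89% of all tested genes were, and the list's median log2 difference was −0.03. Over the list, wild-type DMSO libraries had median centred log2 values of 0.422, 0.525 and 0.673. It was −0.105 to −0.004 in the knockout-labelled DMSO libraries and −0.270 to −0.167 in all 6 docetaxel libraries. The wild-type DMSO libraries were thus the group that stood above the other 3.

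The letters TGATGNAA (TTNCATCA on the other strand), the core of the amino acid response element through which ATF4 and C/EBP factors act, were found in the windows of 286 of the 10445 genes (2.74%) and of 10 of the 26 list genes that have one (38.5%). Of those 10, 8 fell. As 20 of the 29 tested list members fell in all, that count does not bear on the letters. Among all 286 genes 54 were lower (18.9%), against 9.54% of the 10159 genes without the letters. The 8 list members are among the 54, so these shares do not separate the letters from the list. The 4 stretches shown were chosen by the same rule as for the interferon genes, among members of at least 5 CPM in the higher group.
Chac1: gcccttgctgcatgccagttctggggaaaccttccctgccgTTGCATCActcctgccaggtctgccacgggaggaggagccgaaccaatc
Asns: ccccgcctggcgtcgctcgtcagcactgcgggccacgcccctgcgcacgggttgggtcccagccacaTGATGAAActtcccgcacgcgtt
Atf3: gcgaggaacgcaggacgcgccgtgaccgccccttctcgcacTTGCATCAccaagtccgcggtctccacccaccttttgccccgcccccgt
Nupr1: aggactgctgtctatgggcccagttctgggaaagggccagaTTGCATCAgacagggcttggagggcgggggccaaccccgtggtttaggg
They lie at chr2:119351008-119351097 (plus strand), chr6:7693210-7693299 (minus), chr1:191183395-191183484 (minus) and chr7:126625532-126625621 (minus), with the match 193, 23, 110 and 110 bases before the start. Atf3, a stress-induced repressor gene, went from 10.0, 10.6 and 13.3 CPM to 6.23, 5.96 and 6.61 CPM (−0.85 ± 0.12; edgeR adjusted p = 0.000342). Nupr1, a stress-induced chromatin protein gene, went from 123, 91.2 and 187 CPM to 77.9, 85.8 and 73.8 CPM. The log2 differences of Chac1 and Asns were −1.06 and −0.99.

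The DNA replication list and the list of Myc and ribosome biogenesis had more genes higher than the 6.6% of all tested genes. Both counts depended on single libraries. Of 45 DNA replication genes 12 were called higher and 1, Cdt1, lower, with a median log2 difference of 0.38 and 41 positive values. The count of 12 depended on single libraries, being 33 without wild-type library 1, 1 without wild-type library 2 or knockout-labelled library 1, 2 without wild-type library 3 or knockout-labelled library 3, 5 without knockout-labelled library 2, and 7 without wild-type docetaxel library 3. The list's centred median was 0.048, −0.370 and −0.584 in the wild-type libraries, of which the first lay within the knockout-labelled range of −0.052 to 0.170. Ccne1, the cyclin E1 gene, stood at 3.48, 2.13 and 2.5 CPM against 6.36, 4.95 and 5.05 CPM (1.01 ± 0.18; edgeR adjusted p = 0.00209). Of 33 genes of Myc and ribosome biogenesis 12 rose and 0 fell. That count was 21 without wild-type library 1, 6 without wild-type library 2 or knockout-labelled library 3 and 3 without knockout-labelled library 1. Rrp12, a factor of ribosome export, stood at 20.8, 10.7 and 14.1 CPM against 34.9, 23.5 and 26.2 CPM (0.89 ± 0.19; edgeR adjusted p = 0.00602). Myc itself stood at 361, 341 and 372 CPM against 464, 423 and 424 CPM, without overlap. After docetaxel 0 DNA replication genes were called higher and 1 lower, with a median log2 difference of 0.03. Of the Myc and ribosome biogenesis list 1 was then called higher and 0 lower, with a median of 0.08. Of 82 cytosolic ribosomal protein genes 9 fell (4 or 5 without wild-type library 3 or knockout-labelled library 1 or 3) and 0 rose. These 11% are near the 9.2% of all tested genes that fell, and the list's median log2 difference was −0.02. None of the 13 mitochondrially encoded genes was called.

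**Figure D2:**
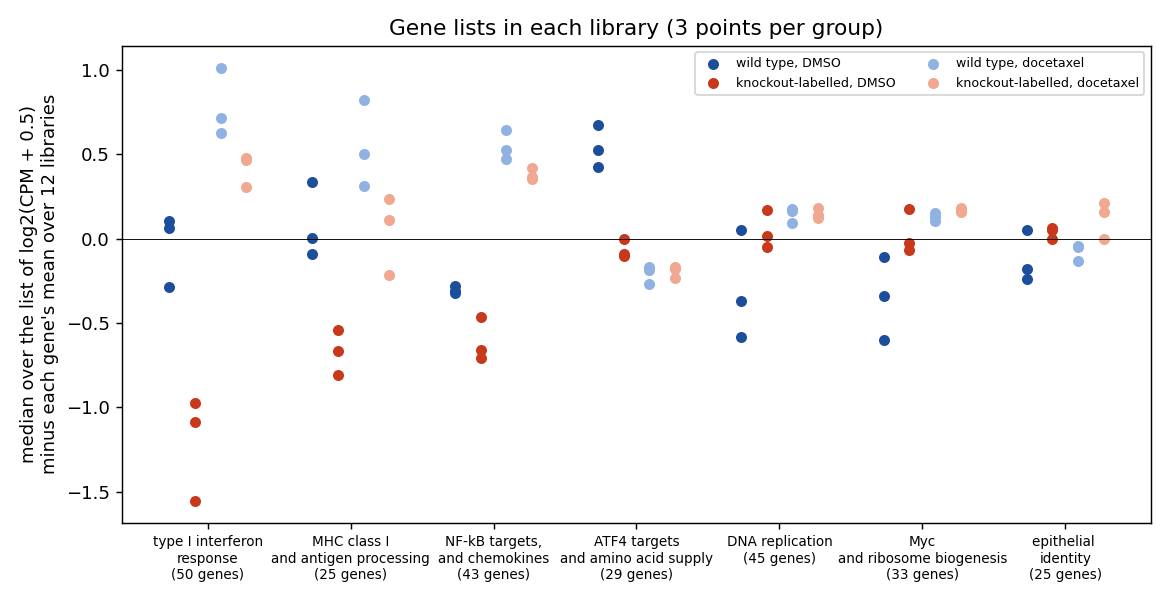
Median over each gene list of log2(CPM + 0.5) minus the gene's mean over 12 libraries (vertical axis), for 7 lists (horizontal axis), 1 point per library and 3 per group. The interferon and MHC class I points of knockout-labelled DMSO libraries lie below those of the other 3 groups, the ATF4 points of wild-type DMSO libraries lie above those of the other 3, and for DNA replication the 2 DMSO groups overlap.

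Matrix and adhesion genes changed in both directions. Over all tested genes 6.6% were higher and 9.2% lower. Of 38 matrix proteases and inhibitors 15 fell and 5 rose, and 9 fell without knockout-labelled library 1. Mmp3, the stromelysin 1 gene, went from 42.1, 26.3 and 20.1 CPM to 13.9, 13.5 and 12.4 CPM (−1.15 ± 0.22; edgeR adjusted p = 0.00264), and Adam19, a membrane metalloprotease gene, from 19.5, 16.8 and 16.9 CPM to 8.79, 8.01 and 7.34 CPM (−1.14 ± 0.12). Mmp9, the gelatinase B gene, rose from 684, 516 and 444 CPM to 903, 883 and 861 CPM (0.69 ± 0.12; edgeR adjusted p = 0.00203). Of 26 integrin-binding matrix ligands 8 rose and 8 fell. Sparc, a collagen-binding matricellular gene, fell from 140, 159 and 193 CPM to 81.9, 95.3 and 94.6 CPM (−0.85 ± 0.14; edgeR adjusted p = 0.00106), whereas Tnxb, the tenascin X gene, rose from 15.6, 14.5 and 15.9 CPM to 24.6, 32.2 and 25 CPM (0.83 ± 0.12; edgeR adjusted p = 0.000357). Of 42 focal adhesion and integrin signalling genes 7 fell, where 9.2% of all tested genes did, and 1 rose. Of the 7, 4 lie on chromosomes 3, 8, 14 and 18, which leaves 3 of 36 elsewhere. Ptk2b, the gene of the focal adhesion kinase relative PYK2, went from 63.4, 69.9 and 82.6 CPM to 36.8, 38.5 and 41.7 CPM (−0.88 ± 0.10; edgeR adjusted p = 3.98e-05), and Src from 151, 131 and 171 CPM to 116, 109 and 107 CPM. Enah, an actin-elongating factor gene, rose from 45.3, 43.0 and 54.4 CPM to 68.8, 70.1 and 74.3 CPM. Of the 18 laminin, basement membrane and hemidesmosome genes only Lamb3 was called, and not without wild-type library 3 or knockout-labelled library 1 or 3.

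Of 25 epithelial identity genes 9 were called higher and 1 lower, where 6.6% of all tested genes were higher and 9.2% lower. Without any 1 library 6 to 10 were higher and 0 to 5 lower, the 5 being without wild-type library 1. Rab25, a GTPase of epithelial recycling endosomes, stood at 16.3, 18.2 and 18.1 CPM against 32.7, 32.7 and 34.4 CPM (0.93 ± 0.09; edgeR adjusted p = 1.9e-05). Esrp1, an epithelial splicing factor gene, stood at 119, 147 and 139 CPM against 175, 187 and 195 CPM. Of the 11 tested keratin genes, a separate list, 2 rose, 1 fell and 8 were not called. Krt19, a luminal keratin gene, stood at 215, 185 and 241 CPM against 359, 403 and 362 CPM (0.81 ± 0.17; edgeR adjusted p = 0.00576). Krt16 was the keratin gene that fell, with a log2 difference of −1.10. Cdh1, the E-cadherin gene, did not pass, at 572, 633 and 705 CPM against 525, 573 and 553 CPM, which overlapped by 1 library. Of 16 mesenchymal markers and factors 5 fell and 1 rose, the latter a call lost without any 1 of 10 libraries. Vim, the vimentin gene, fell from 424, 564 and 640 CPM to 365, 361 and 374 CPM (−0.57 ± 0.13; edgeR adjusted p = 0.00823), and Pdgfra from 26.9, 28.7 and 29.7 CPM to 13.5, 16.5 and 14.9 CPM (−0.92 ± 0.11). Pdgfra is also the main contributor to the fibroblast marker sum, which was 29.2 to 30.7 CPM in wild-type and 15.3 to 19 CPM in knockout-labelled libraries, with Lum and Dpt at 0 in all 6. Of 20 adherens junction and desmosome genes 5 rose and 2 fell, and of 19 tight junction genes 4 rose and 2 fell. In both lists the share that fell was near the 9.2% of all tested genes. The higher counts were 2 without knockout-labelled library 2 and 1 without knockout-labelled library 1, respectively. Beside Dsc2 and Cldn7, the fallen were Cdh3, the P-cadherin gene, at 1.32, 2.24 and 2.23 CPM against 0.032, 0.0651 and 0.0588 CPM, and F11r, the gene of junctional adhesion molecule A, at 123, 150 and 165 CPM against 98.8, 121 and 116 CPM, a call lost without wild-type library 2 or 3 or knockout-labelled library 1 or 3. Nectin1, an adherens-junction gene, rose from 76.9, 68.6 and 80.2 CPM to 113, 107 and 114 CPM, and Ctnnb1, the β-catenin gene, from 789, 752 and 780 CPM to 991, 956 and 982 CPM (0.34 ± 0.07; edgeR adjusted p = 0.0055).

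Single members of signalling lists changed by 2-fold or more while the lists were mixed. Over all tested genes 6.6% were higher and 9.2% lower. Of 30 Wnt pathway genes 6 rose (3 without knockout-labelled library 2) and 2 fell. Tcf7, a nuclear effector of β-catenin, stood at 4.52, 3.06 and 2.63 CPM against 13.5, 12.3 and 12.3 CPM (1.90 ± 0.17; edgeR adjusted p = 6.7e-06), and the ligand gene Wnt10a at 36.4, 41.7 and 39.6 CPM against 18.2, 18.5 and 20.4 CPM (−1.04 ± 0.10). Of 46 growth factor and receptor genes 6 rose and 10 fell, the latter count being 4 to 6 without any 1 DMSO library other than wild-type library 1. Ngfr, the p75 neurotrophin receptor gene, stood at 19, 11.4 and 12.5 CPM against 60.2, 55.5 and 53.5 CPM (1.98 ± 0.16; edgeR adjusted p = 1.81e-06), and Fgfr1 at 11.4, 9.77 and 9.69 CPM against 29.6, 31.1 and 29.7 CPM (1.55 ± 0.14). Of the immediate-early factors, Fos was higher (1.28 ± 0.17) and Egr1 lower (−1.06 ± 0.15) in knockout-labelled cells. For the target and the pumps of docetaxel, before any drug was given, 6 of 34 tubulin and microtubule regulator genes rose and 3 fell, with 10 rising without wild-type library 1 and 3 without knockout-labelled library 1. Tubb4b, a widely expressed β-tubulin gene, stood at 262, 187 and 193 CPM against 385, 343 and 334 CPM (0.73 ± 0.12; edgeR adjusted p = 0.000968), and Tubb2b at 12.4, 9.12 and 12.7 CPM against 4.16, 4.49 and 4.49 CPM (−1.38 ± 0.17). Of 20 ABC transporter genes 2 rose and 2 fell, which is near the shares of all tested genes. The efflux pump gene Abcg2 stood at 1.60, 1.45 and 0.878 CPM against 5.66, 5.34 and 4.64 CPM (1.99 ± 0.22; edgeR adjusted p = 4.25e-05). Of 33 NRF2 and glutathione genes 10 fell and 2 rose, with Gstm2, a glutathione transferase gene, at 21.7, 28.1 and 26.5 CPM against 1.98, 1.73 and 2.14 CPM. When genes of chromosomes 3, 8, 14 and 18 were left out, 4 of those 10 remained, and 6 fell without wild-type library 2 or knockout-labelled library 1. Without wild-type library 1, 7 rose.

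Direction differed between chromosomes, and the choice of genes did not use position. Chromosomes 3, 8, 14 and 18 were grouped after their values were seen, as those of lowest median. Their contrast with the other chromosomes under DMSO was thus set by that choice. Of the 2016 tested protein-coding genes on chromosomes 3, 8, 14 and 18, 600 were lower (29.8%) and 80 higher (3.97%), with a median log2 difference of −0.228, or 85.4% of the wild-type level. On the other chromosomes 751 of 10520 were lower (7.14%) and 906 higher (8.61%), with a median of 0.0433. The medians were −0.266 on chromosome 3, −0.263 on chromosome 14 and −0.272 on chromosome 18, and those of the other chromosomes, 8 apart, ran from −0.0989 (chromosome 13) to 0.0789 (chromosome 7), leaving out the single gene on Y. Along chromosomes 3, 14 and 18 the running median of 30 consecutive genes was below 0 in 100% of windows under DMSO. Chromosome 8 was divided. Its median was −0.225 over the 494 genes from Lonrf1, at 36.2 Mb, to Trappc2l, at 123 Mb, of which 141 were lower and 14 higher. It was 0.0699 over the 191 genes outside that stretch, of which 5 were lower and 20 higher. These bounds were read from the values, as the longest run of windows below 0 in both treatments. Many members had small differences, since 79 of the 600 lower genes were past 2-fold. On chromosome 3 the centred median was 0.094, 0.129 and 0.074 for wild type under DMSO, against −0.162, −0.142 and −0.148 for knockout-labelled cells. On chromosome 18 it was 0.114, 0.162 and 0.111 against −0.146, −0.119 and −0.123. Each library of a line had the level of its line, and the 6 docetaxel libraries fell on the same sides, with medians over genes of −0.205, −0.178, −0.224 and −0.208 on chromosomes 3, 8, 14 and 18. All 9 ribosomal protein genes called lower lie on these 4 chromosomes, as do Dsc2, Piezo2, Prelid2, Sh3tc2, Nlrc5 and Gstm2. The interferon and ATF4 counts do not rest on them, since 39 of 42 and 18 of 25 list members on the other chromosomes also fell. The cause of the chromosomal pattern was not tested.

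**Figure D3:**
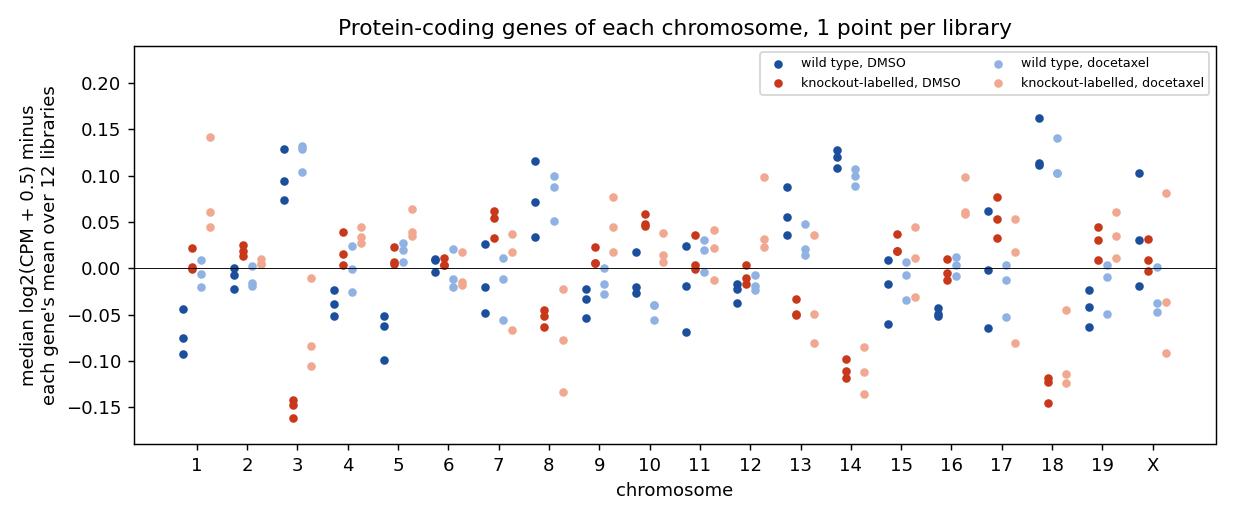
Median over the protein-coding genes of each chromosome (horizontal axis) of log2(CPM + 0.5) minus each gene's mean over 12 libraries, 1 point per library. On chromosomes 3, 8, 14 and 18 all 6 wild-type points lie above all 6 knockout-labelled points.

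**Figure D4:**
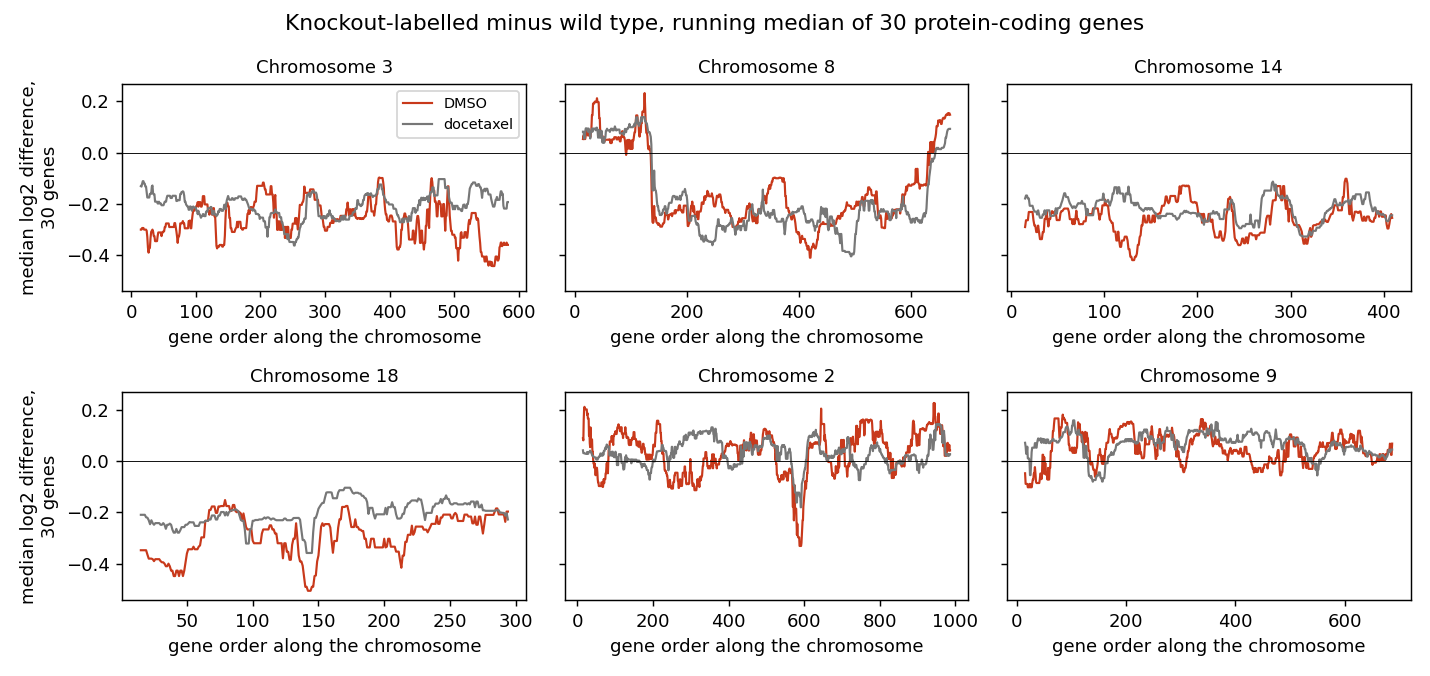
Median log2 difference between the lines in a running window of 30 protein-coding genes, by gene order, under DMSO and after docetaxel, on chromosomes 3, 8, 14 and 18 and, for comparison, 2 and 9. The lines stay below 0 along chromosomes 3, 14 and 18 and step down and back up on chromosome 8 near the same genes in both comparisons.

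The stretches of 30 genes with the lowest medians lay on chromosome 18 from Hars2 to Lars (−0.507, 14 lower and 0 higher), again on chromosome 18 from Cables1 to Rprd1a (−0.449, 17 lower and 2 higher), and on chromosome 3 from Pdlim5 to Ifi44 (−0.444, 17 lower and 0 higher). The second of them holds Impact, an imprinted gene of a translational regulator, at 19.9, 20.8 and 15.8 CPM against 5.85, 5.15 and 6.93 CPM (−1.65 ± 0.19; edgeR adjusted p = 4.39e-05). The third holds the guanylate-binding protein genes described above. The highest stretch, from Per3 to Pank4 on chromosome 4, had a median of 0.307, with 7 genes higher and 1 lower. These stretches were picked as the extremes of 11956 overlapping windows. Of all windows, 3.88% had a median at least as far from 0 as the chromosome 4 stretch. For the 3 lowest stretches it was 0.0251% to 0.151%. After docetaxel the chromosome 4 stretch had a median of 0.13, and the 3 lowest had −0.359, −0.279 and −0.2. The chromosome 4 stretch holds Espn, the gene of an actin-bundling protein, at 47.3, 61.5 and 65.2 CPM against 117, 153 and 147 CPM (1.26 ± 0.16; edgeR adjusted p = 0.000109).

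A set of features, some of them abundant, was higher in the wild-type than in the knockout-labelled DMSO libraries. Gm23935 stood at 16200, 40500 and 4740 CPM in the former and at 1550, 1380 and 1790 CPM in the latter (−3.71 ± 0.64; edgeR adjusted p = 0.00143). Gm14236 went with it, at 720, 2210 and 93.2 CPM against 59.9 to 79.6 CPM, as did Pnck, a calcium/calmodulin-dependent kinase gene, at 1340, 2750 and 779 CPM against 319 to 447 CPM, and Nnat, an imprinted neuronal gene, at 11.5, 55.9 and 6.08 CPM against 3.41 to 4.80 CPM. In each of the 4 the highest value was in wild-type library 2 and the lowest of the wild type in library 3. After docetaxel Gm23935 made up 0.8558%, 0.2935% and 1.505% of the counts of knockout-labelled libraries 1, 2 and 3. The part of these features in other differences was not tested.

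Differences under DMSO were then set beside those after docetaxel. Of the 1025 genes higher under DMSO, 933 (91%) had the same sign after docetaxel and 280 (27.3%) were called. Of the 1429 lower genes, 1286 (90%) had the same sign, 390 (27.3%) were called lower and 5 were called higher. After docetaxel 915 genes were called in all (5.89%), 389 higher (2.5%) and 526 lower (3.39%), with 162 at least 2-fold higher (1.04%) and 139 at least 2-fold lower (0.895%). The 670 genes called in the same direction in both comparisons were 27.3% of the DMSO calls and 73.2% of the docetaxel calls. The smaller share under DMSO does not show that the other differences were lost. The test of that change, the interaction of genotype and treatment, called 17 genes (0.109%), all of them also called under DMSO. That count was 2 to 431 without any 1 library and 165 with DESeq2. The term was positive for 14 (0.0901%) and negative for 3 (0.0193%). They included 4 of the ATF4 list (Atf4, Asns, Slc7a5, Slc1a4) and 3 of the interferon list (Oas2, Sp100, Ifi27). Of the interferon list 6 of 50 were called lower after docetaxel and 1 higher, with a median of −0.37, and of the MHC class I list 8 of 25 were called lower, with a median of −0.48. Oas2 stood at 14.4, 27.8 and 27.7 CPM against 4.96, 7.23 and 6.29 CPM under DMSO, and at 59.5, 83.5 and 64.2 CPM against 53.8, 66.0 and 67.7 CPM after docetaxel. The lines were apart before the drug and overlapped after it. Nlrc5 kept its direction, at 35.2, 33.3 and 31.5 CPM against 9.66, 9.81 and 11.1 CPM after docetaxel.

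**Figure D5:**
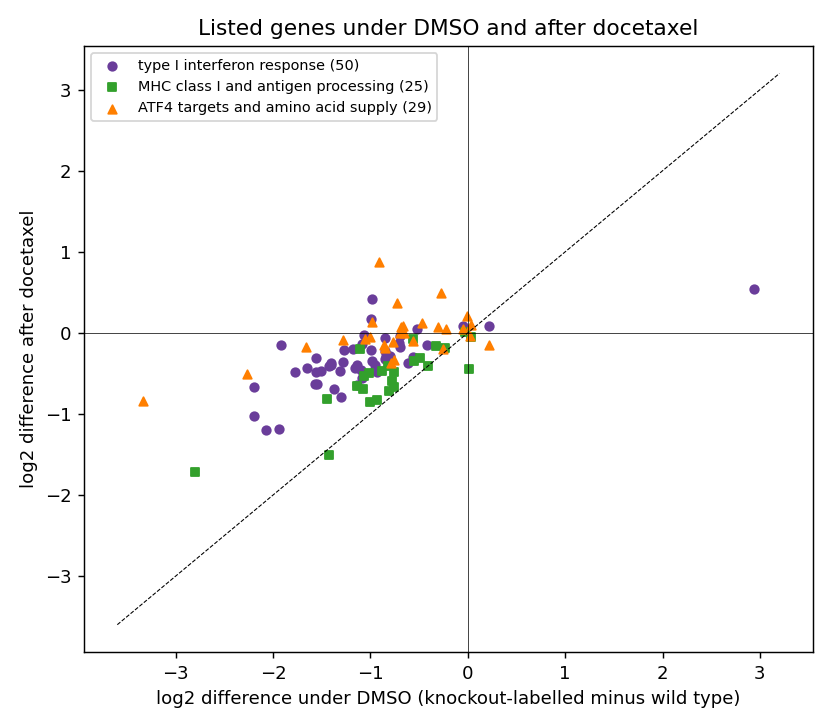
Log2 difference between the lines under DMSO (horizontal axis) and after docetaxel (vertical axis), 1 point per tested gene of 3 lists, with the dashed line where both are equal. Most points lie left of 0 and above the dashed line, with ATF4 points near 0 on the vertical axis and Ifitm1 alone at the far right.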

How the data were processed

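Per the labels' protocols, ribosomal RNA was removed with RNase H and paired reads of 150 bases were sequenced after random-hexamer reverse transcription. The submitters' processing notes name STAR 2.5.1a, featureCounts 1.4.6-p5, Subread and bcl2fastq. The sources used here do not give the build, annotation, strand setting or handling of reads with several locations, so near-identical, overlapping and antisense genes are uncertain. The deposited values are raw counts per gene symbol, 1 column per library, as the authors made them. Of 40757 entries, 351 (0.907% of counts) repeated another in symbol and all counts and were dropped. Symbols were placed with GENCODE release 21 for mouse (M21, GRCm38), whose positions are printed.

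All 12 libraries were fitted in edgeR 4.0.16 (R 4.3.3): filterByExpr, TMM scaling, a quasi-likelihood model with a mean per group, two-sided contrasts, Benjamini-Hochberg adjustment over 15538 genes, calls below 0.05. Sharing 1 spread estimate (common biological coefficient of variation 13.2%) assumes that groups vary alike. A standard error is the absolute log2 difference over the square root of F. CPM use TMM-scaled totals. Counting intervals (95%, exact) cover counting error only. The fit was tested on simulated counts with 200 changed genes. Replicate numbers were not treated as pairs.

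Members, gene lists and rules were chosen with earlier results of these data known. Named genes are the 3 β3-related integrins, the 12 largest called increases and decreases (protein-coding, at least 5 CPM in the higher group, no overlap), genes with at most 3 counts in one line and at least 1 CPM in the other, up to 4 called members per list, the 4 largest CPM differences each way, up to 3 genes per named stretch, and 6 genes of the interaction. Genes outside this rule (Irf1, Irf7, Irf9, Ifitm1, Ifitm2, Oas1a, Trim30a, H2-K1, H2-D1, B2m, Cxcl10, Atf3, Atf4, Asns, Slc7a5, Slc1a4, Nupr1, Myc, Esrp1, Cdh1, Cdh3, Sp100, Ifi27, Nlrp10, Cdt1) were named after their values were seen, as were the chromosome division, library medians and motifs. Alternatives were DESeq2 1.42.0, limma-voom (limma 3.58.1), other scalings and filters, a GC correction, the 6 libraries alone, and omissions. Figures used matplotlib in Python.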

Additional observations from a re-analysis of the deposited data

Results flagged for a closer look

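For 17 genes the difference between the lines itself differed between DMSO and docetaxel, by the interaction term of the edgeR model (adjusted p below 0.05 over all tested genes). The number of such genes ranged from 2 to 431 without any 1 library. The values here are the log2 difference between the lines after docetaxel minus that under DMSO. In the ATF4 list they were 0.96 for Atf4, 1.12 for Asns, 0.72 for Slc7a5 and 0.76 for Slc1a4. For each of them the wild-type DMSO libraries were the high group, and the 3 other groups lay close together. Atf4, for example, stood at 253 to 305 CPM in wild-type DMSO libraries, 127 to 150 CPM in knockout-labelled DMSO libraries and 120 to 150 CPM in the docetaxel libraries of both lines.

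Among interferon-regulated genes the values were 1.78 for Oas2, 1.22 for Sp100, 1.4 for Ifi27, 1.09 for Nlrc5 and 1.59 for Lgals9. Ifi27 changed direction between the treatments, with log2 differences of −0.99 under DMSO and 0.41 after docetaxel, both called. The others were lower in knockout-labelled cells under DMSO by more than after docetaxel.

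The difference shrank for 3 genes that were higher in knockout-labelled cells under DMSO. The values were −1.55 for Ltf, −1.80 for Nlrp10 and −1.19 for Clu, the clusterin gene. Clu stood at 301, 215 and 225 CPM against 542, 463 and 476 CPM under DMSO.

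The remaining values were 5.79 for Gm23935, 6.29 for Gm24270, 7.42 for Gm25911, 2.75 for Gm24245 and 2.70 for Ppp1r14a. These 5 were high in wild-type DMSO and in knockout-labelled docetaxel libraries. Gm25911 stood at 477, 702 and 51.5 CPM in the former and 300, 93.4 and 468 CPM in the latter, so that libraries within a group lay far apart.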

How the results depend on the processing

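Of 203 named genes that were called, 143 kept their call in all 25 alternatives that changed the fit, 60 lost it in at least 1, and 0 changed direction. Leaving out 1 library at a time gave 1264 to 3273 calls under DMSO (461 to 1493 higher, 803 to 1780 lower), 467 to 1083 after docetaxel (220 to 455 higher, 247 to 628 lower), and 2 to 431 for the interaction. For MHC class I, 12 to 20 genes fell, and the median of chromosome 14 was −0.277 to −0.244. The Itgb3 difference ran from −0.091 to 0.036 and that of Itga2b from −0.677 to 0.033, so that both signs are unsettled. Omitting together the library of each genotype richest in Gm23935 (wild-type DMSO 2, knockout-labelled docetaxel 3) gave 1267 calls under DMSO (442 higher, 825 lower), 565 after docetaxel (292 lower) and 4 for the interaction, and the median of chromosome 14 was −0.241. An adjusted p threshold of 0.01 gave 1129 calls, and the 6 DMSO libraries fitted alone gave 562 higher genes. With upper-quartile scaling the median of chromosome 14 was −0.249. After docetaxel a GC correction gave 1377 calls (598 higher) and DESeq2 612 higher genes. The interaction count was 165 with DESeq2, 8 with limma-voom, 421 without the filter on low counts and 42 with the GC correction. With the replicate number as a block, 2534 genes were called under DMSO and 48 for the interaction. Same-numbered libraries of the 2 lines had correlations of 0.142, 0.0553 and −0.00903 under DMSO and 0.346, 0.218 and 0.0252 after docetaxel, and differently numbered ones ran from −0.279 to 0.0884. The values of 0.142, 0.346 and 0.218 lay above every differently numbered one. Not every same-numbered pair was above 0.1, a bound without a test behind it, and the main fit did not take the numbers as pairs. Whether same-numbered libraries shared a batch was not tested. Chosen after the data were seen, the omission of genes on chromosomes 3, 8, 14 and 18 left 1757 calls, 942 higher and 815 lower. The cause of these shifts was not tested, apart from the smaller number of libraries or genes in some. Depth limits calls for genes of a few CPM.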

Other observations

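Further lists gave values that no comparison above describes. Of 33 cholesterol and fatty acid synthesis genes 4 were called higher and 2 lower, and of 38 mitosis genes 6 higher and 3 lower, where 6.6% of all tested genes were higher and 9.2% lower. The higher counts were 0 for both lists without wild-type library 2, and 16 and 13 without wild-type library 1, while 0 to 4 mitosis genes were lower without any 1 library. Of 39 glycolysis and hypoxia genes 3 were called in each direction, with 1 lower without wild-type library 2. Hk2, the gene of hexokinase 2, stood at 145, 103 and 123 CPM in wild-type and 184, 181 and 185 CPM in knockout-labelled libraries (log2 difference 0.57 ± 0.11; edgeR adjusted p = 0.00387). Trp53, the p53 gene, was lower, at 46.8, 63.5 and 52.8 CPM against 36.1, 36.1 and 36.8 CPM (−0.58 ± 0.12; edgeR adjusted p = 0.00385), and Ccnd2, the cyclin D2 gene, at 117, 136 and 132 CPM against 91.8, 84.2 and 89.4 CPM. After docetaxel the difference of Trp53 was −0.07.

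Surface markers divided. Ly6e fell from 188, 283 and 250 CPM to 88.5, 123 and 112 CPM (−1.16 ± 0.16; edgeR adjusted p = 0.000245), whereas Ly6c1, of the same gene family, rose from 15.7, 20.4 and 11.4 CPM to 29.2, 28.7 and 26.6 CPM (0.83 ± 0.16; edgeR adjusted p = 0.0033). Sdc1, the syndecan 1 gene, rose from 201, 178 and 203 CPM to 339, 318 and 334 CPM, and Sdc2, the syndecan 2 gene, was called lower, at 78.4, 114 and 104 CPM against 63.5, 77.1 and 72.8 CPM, a call lost without wild-type library 2 or knockout-labelled library 1. The Notch pathway had 3 of 21 genes called in each direction (1 lower without wild-type library 2). Over all tested genes 6.6% were higher and 9.2% lower. Notch3 stood at 32.1, 32.9 and 41.1 CPM against 53, 63.3 and 60.6 CPM (0.74 ± 0.11; edgeR adjusted p = 0.000634).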
